A study of Danio rerio with 121 samples.

Results

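At 96 hours post fertilization (hpf), the zebrafish time course held 8 libraries with an S in their title and 8 plain libraries without it, and the S libraries were compared with the plain ones gene by gene, first in mean and then in the spread between libraries. The members were taken by title alone, libraries S1 to S8 against libraries 1 to 8, and make up 16 of the 121 libraries of the series. The study followed whole zebrafish of the RIKEN WT (RW) strain by RNA-Seq through early development, beside a mouse series not analysed here, to find genes with trajectories like that of *Sox9* during formation of the face. All 16 libraries were wild type, carried no named treatment and came from total RNA of 96 hpf fish. The recorded year was 2020 for each, without saying which step it dates. They were read by Lasy-Seq, a method that indexes each RNA at reverse transcription and sequences the 3′ end of its transcripts.

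What the S stands for is not described in the sources used here. Each S library has a used number of 1 and each plain library a used number of 5 in the deposited list of samples, which does not explain the number either. The labels speak of single embryos for both kinds, whereas the study's methods describe pools of embryos for other stages, so the number of larvae behind a library is not settled. The letter S and the used number changed together, so that they cannot be told apart. No source says that the libraries came from separate clutches, and the p-values measure the spread between these libraries only.

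At 96 hpf a zebrafish larva has hatched, swims with working fast muscle, sees with a layered retina, and still draws on its yolk, whose lipids are packed into lipoproteins by the yolk syncytial layer and the liver. The gut, liver and exocrine pancreas are maturing for first feeding, and the cartilages of the jaw and the ethmoid plate are growing. In RNA of whole larvae each tissue contributes in proportion to its cells and to the RNA per cell, and fewer cells of a type cannot be told apart from less RNA per cell.

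Total counts ran from 866854 to 3053214 in the S libraries (median 2757870) and from 1664442 to 3440409 in the plain libraries (median 2058683). No difference between the groups was detected (two-sided exact permutation test, p = 0.682). Markers of lens, rods and cones, fast muscle, liver, gut, exocrine pancreas, red blood cells, cartilage and melanophores were present in both groups. Of these, *cpa1* of the exocrine pancreas and *acana* of cartilage were low, at most 11.3 and 7.88 CPM (counts scaled to a common library total). The hatching gland markers *he1.1*, *he1.2* and *hce2l1* reached at most 10.7 CPM. A further one, *ctslb*, had 4.69 to 26.0 CPM in S libraries and 14.8 to 23.9 CPM in plain libraries. For the swim bladder, *sftpba* reached at most 2.95 CPM. The other swim bladder marker, *anxa5b*, had 58.3 to 103 CPM in S libraries and 66.4 to 87.9 CPM in plain libraries. The share of counts from ribosomal protein genes was 19.1% to 21.9% in S libraries and 17.4% to 18.9% in plain libraries, without overlap (two-sided exact permutation test, p = 0.000155, the smallest that 8 against 8 allows). The share from the mitochondrial genome was 4.8% to 5.5% in S libraries and 4.71% to 5.37% in plain libraries (exact permutation test, p = 0.309). Genes with no count where at least 10 were due from the rest of the group numbered 26 to 57 in S libraries and 21 to 28 in plain libraries (exact permutation test, p = 0.000311). These numbers depend on each other within a group, so this p is approximate. A pair of S libraries stood apart. Among genes with a mean of at least 10 CPM, 184 genes in library S4, the shallowest of the 16, and 92 genes in library S3 lay at least 4-fold below their group, against 4 to 20 in the other S libraries and 1 to 16 in the plain libraries. Results that rest on S3 or S4 are given below with and without them.

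In mean level, 176 of 16563 genes tested were higher in S libraries (1.06%) and 221 were lower (1.33%), 397 in either direction (2.4%), at an adjusted p under 0.05 in the quasi-likelihood test of edgeR with TMM scaling. The genes that were higher were abundant, with a median level of 997 CPM over the 16 libraries, and they moved little, with a median log2 fold change of 0.36. The genes that were lower had a median level of 37.5 CPM and moved further, with a median log2 fold change of -0.80. The median gene of the table had 9.58 CPM and a log2 fold change of 0.02. Only 3 genes were higher by at least 1 on the log2 scale, whereas 61 were lower by at least 1. Among the 8078 genes with a mean of at least 10 CPM, all S libraries lay above all plain libraries for 58 genes (0.718%) and below them for 40 genes (0.495%). Counts of called or non-overlapping genes in the gene lists below stand beside these shares of all genes. Scaling by library totals alone moved the median gene by -0.11, to -0.09, and turned the split into 73 higher and 371 lower genes. Without library S2 the number of lower genes was 146.

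**Figure D1:**
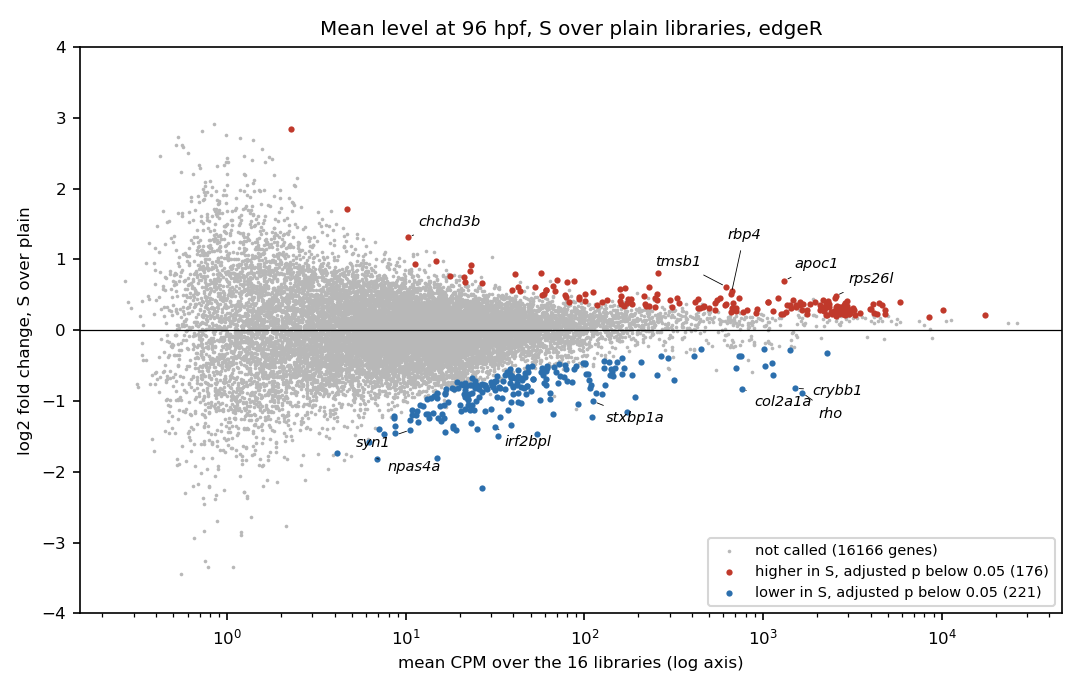
Mean level of each gene over the 16 libraries of 96 hpf (CPM, log axis) against its log2 fold change, S over plain, with the 176 genes higher in S and the 221 lower in S marked. The higher genes sit at the abundant end close to 0, and the lower genes reach further from 0 at lower levels.

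Genes of lipid transport from yolk and liver were higher in S libraries. Of 18 tested members of a list of vitellogenins and apolipoproteins, 8 rose and none fell, with a list median of 0.29 against 0.02 for all genes. *apoc1*, an apolipoprotein of triglyceride-rich particles, had 1204 CPM in the lowest S library, a median of 1579.6 and 2129 CPM in the highest, against 838, 1025 and 1128 CPM in plain libraries. Every S library lay above every plain library, and the log2 fold change was 0.70 ± 0.09 (standard error, n = 8 each, adjusted p = 8.81e-06). *apoa1b*, a structural protein of high-density lipoprotein, had 5894, 6517 and 7696 CPM (lowest, median, highest) in S libraries and 4465, 5040.4 and 5633 CPM in plain libraries, again without overlap (log2 fold change 0.40 ± 0.06, adjusted p = 1.24e-05). *apoea*, an apolipoprotein E, had 625, 806 and 944 CPM in S libraries and 429, 543 and 651 CPM in plain libraries, and the groups overlapped at their edges (log2 fold change 0.56 ± 0.08, adjusted p = 3.96e-05). The other members that rose were *apoa2*, *apoa1a*, *apom*, *apoc2* and *apoa4b.1*. Zebrafish hold near-identical copies of several apolipoproteins, and reads shared between copies were divided by the counting program, so the value of a single copy is uncertain.

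Of the 37 tested genes of liver and plasma proteins, 3 rose and none fell (list median 0.21). *rbp4*, the carrier of retinol in blood, had 656, 781 and 876 CPM in S libraries and 485, 543 and 589 CPM in plain libraries without overlap (log2 fold change 0.52 ± 0.07, adjusted p = 1.24e-05). *tfa*, the iron carrier transferrin, had 970, 1074 and 1717 CPM in S libraries and 739.6, 917 and 1047 CPM in plain libraries, with overlap (log2 fold change 0.40 ± 0.09, adjusted p = 0.00939). The third gene was *itih2*, an inter-alpha-trypsin inhibitor chain, with a log2 fold change of 0.61 ± 0.16 and an adjusted p of 0.026.

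The cytosolic ribosomal proteins formed the group with the most called genes. Of 80 tested, 61 rose and none fell, all 80 had a positive fold change, and 26 did not overlap between the groups, with a list median of 0.28. *rps26l*, a small subunit protein, had 2686, 2899 and 3555 CPM in S libraries and 1941, 2124 and 2250.1 CPM in plain libraries (log2 fold change 0.48 ± 0.06, adjusted p = 8.35e-06). *rpl39*, of the large subunit, had 2521, 2909 and 3445 CPM in S libraries and 1923, 2172 and 2245 CPM in plain libraries (log2 fold change 0.45 ± 0.06, adjusted p = 8.81e-06). Each of these genes was higher in every S library than in any plain library, as were *rpl29*, *rpl36* and *rpl23a*, whose log2 fold changes were 0.45, 0.41 and 0.41. With library totals alone, 36 of the 80 passed.

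Genes of mitochondrial respiration were higher by smaller amounts. Of 88 tested subunits of oxidative phosphorylation encoded in the nucleus, 14 rose and none fell (list median 0.21, 82 positive), and of 13 genes of the mitochondrial genome 4 rose and none fell (list median 0.16). *mt-nd6*, a subunit of complex I, had 1443, 1567 and 1783 CPM in S libraries and 1115, 1241 and 1333 CPM in plain libraries without overlap (log2 fold change 0.36 ± 0.06, adjusted p = 0.000369). *mt-co3*, a subunit of cytochrome c oxidase, did not overlap either (log2 fold change 0.29 ± 0.05, adjusted p = 0.000415), while *mt-co2* did (0.19 ± 0.05, adjusted p = 0.031) and lost its call in 12 of 26 other settings. The called members of the nuclear list depended on the scaling, since library totals alone left 3 members higher and 2 lower. Its median stayed positive, at 0.10 to 0.23 over the other settings. *chchd3b*, a protein of the cristae junctions of mitochondria, was 1 of the 3 genes higher by at least 1 on the log2 scale, beside *ndufs8b*, a complex I subunit named after its values were seen (1.71), and a gene with a clone-like symbol. It had 8.90, 16.5 and 18.0 CPM in S libraries and 1.98, 4.33 and 13.1 CPM in plain libraries, with overlap (log2 fold change 1.32 ± 0.33, adjusted p = 0.0195).

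Muscle and skin showed a few called genes. Of 63 genes of fast and slow muscle, 7 rose and 1 fell (list median 0.15). *myl10*, a myosin light chain, had 584, 690.2 and 784 CPM in S libraries and 499, 536 and 559 CPM in plain libraries without overlap (log2 fold change 0.36 ± 0.07, adjusted p = 0.00167). *tnnc2* and *pvalb2*, the fast troponin C and a parvalbumin that buffers calcium, rose by 0.28 and 0.21 on the log2 scale with overlap. With library totals alone 2 muscle genes were higher and 4 lower, so the split of the called muscle genes depended on scaling. The median of the muscle list stayed positive, at 0.04 to 0.18 over the other settings. Of 33 genes of epidermal keratins and skin, 5 rose and none fell (list median 0.17). Among them, *icn*, a calcium-binding protein of the S100 family, had 1547, 1809.8 and 2193 CPM in S libraries and 1264, 1372 and 1553 CPM in plain libraries, overlapping only at the edge (log2 fold change 0.39 ± 0.07, adjusted p = 0.000321).

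Outside the lists, the genes with the largest rise and no overlap between libraries were *tmsb1*, *s100w*, *spaca4l*, *gamt* and *abracl*, beside *apoc1*, *rbp4* and the ribosomal genes named above. *tmsb1*, a thymosin beta that binds actin monomers, had 634, 739.9 and 926 CPM in S libraries and 409.8, 498 and 599 CPM in plain libraries (log2 fold change 0.61 ± 0.08, adjusted p = 8.81e-06). *gamt*, which makes creatine, had 695, 878 and 962 CPM in S libraries and 557, 616 and 691 CPM in plain libraries (log2 fold change 0.46 ± 0.08, adjusted p = 0.00025). *s100w*, a calcium-binding protein of the S100 family, was the least secure of them, at 43.5, 49.5 and 66.8 CPM in S libraries and 27.2, 34.5 and 43.0 CPM in plain libraries (log2 fold change 0.56 ± 0.15, adjusted p = 0.0277). *spaca4l* and *abracl* rose by 0.46 and 0.44 on the log2 scale.

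Among the lists, that of neuronal genes held the most genes that fell. Of 64 tested genes of a list of synaptic and neuronal genes, 23 fell and none rose, with a list median of -0.38 and 9 genes in which all S libraries lay below all plain libraries. This list was written after *syn1*, *stxbp1a* and other neuronal genes had been seen among the called genes, so its count is a description. *stxbp1a*, the Munc18 protein that primes synaptic vesicles for fusion, had 28.8, 71.9 and 102 CPM in S libraries and 120.2, 152 and 182 CPM in plain libraries, or a log2 fold change of -1.0 ± 0.15 (adjusted p = 4.46e-05). The groups did not overlap, and library S2 was the lowest. *syn1*, a synapsin on the surface of synaptic vesicles, had 0.369, 6.38 and 9.29 CPM in S libraries and 11.7, 13.9 and 20.4 CPM in plain libraries (log2 fold change -1.41 ± 0.33, adjusted p = 0.00931). Its lowest values, in S2 and S4, rested on 1 read each. *snap91a*, a clathrin adaptor of synaptic vesicles, had 6.27, 13.6 and 22.1 CPM in S libraries and 23.3, 26.9 and 42.1 CPM in plain libraries (log2 fold change -1.11 ± 0.23, adjusted p = 0.00208). *stmn2b*, a stathmin that regulates microtubules in growing axons, had 20.7, 36.5 and 77.4 CPM in S libraries and 74.8, 93.0 and 102.8 CPM in plain libraries, where only library S1 reached the plain range (log2 fold change -1.18 ± 0.18, adjusted p = 6.71e-05). Without S3 and S4 together, a choice made after seeing the data, 23 genes of the list still fell, and leaving out any 1 library gave 21 to 28.

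The other genes with the largest fall and no overlap included several regulators of transcription and vesicle traffic. *irf2bpl*, a nuclear regulator needed in neurons, had 5.89, 15.6 and 32.8 CPM in S libraries and 35.5, 44.2 and 55.4 CPM in plain libraries (log2 fold change -1.37 ± 0.21, adjusted p = 5.8e-05). *dmxl2*, which regulates the vesicular proton pump, had 4.83, 13.8 and 20.1 CPM in S libraries and 25.2, 32.7 and 47.6 CPM in plain libraries (log2 fold change -1.32 ± 0.22, adjusted p = 0.000192). *zeb2b*, a zinc finger homeobox factor of neural crest and nervous system, had 4.27, 9.45 and 14.3 CPM in S libraries and 17.6, 21.5 and 33.5 CPM in plain libraries (log2 fold change -1.23 ± 0.23, adjusted p = 0.000924). All S libraries therefore lay below all plain libraries for each of these genes. The same held for *atn1*, a corepressor, *fryb*, *ubap2a*, *usp32*, a ubiquitin protease, and *clstn3*, a synaptic calsyntenin, with log2 fold changes of -1.19, -1.15, -1.03, -0.97 and -0.96.

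**Figure D2:**
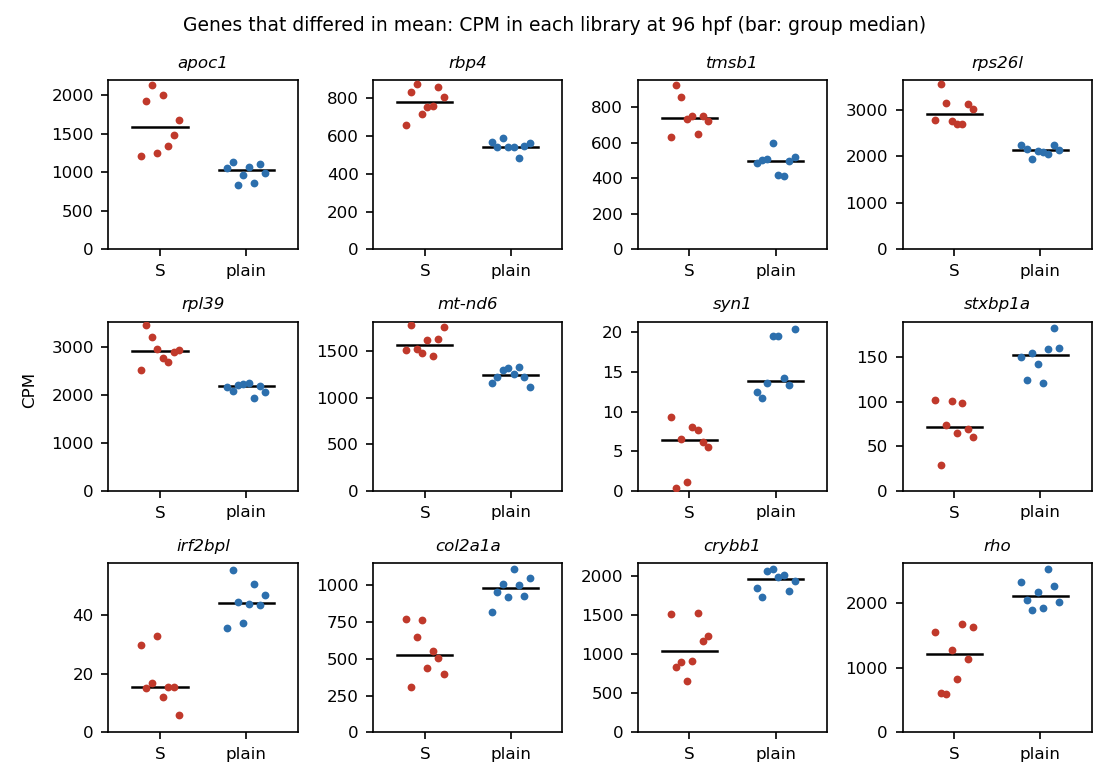
CPM (TMM-scaled) of 12 genes in each of the 8 S libraries (left in each panel) and the 8 plain libraries (right), with the group median as a line. *apoc1*, *rbp4*, *tmsb1*, *rps26l*, *rpl39* and *mt-nd6* were higher in every S library than in any plain library, and *syn1*, *stxbp1a*, *irf2bpl*, *col2a1a*, *crybb1* and *rho* were lower in every S library.

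Several collagen chains of cartilage and bone were lower in S libraries. Of 47 tested genes of cartilage and bone, 12 fell and none rose (list median -0.29), and 10 of the 12 were collagen chains. The list held 14 tested collagen chains, counted apart after their values were seen, and the 10 that fell were *col2a1a*, *col11a1a*, *col9a1b*, *col11a2*, *col1a1b*, *col2a1b*, *col9a2*, *col1a2*, *col1a1a* and *col9a3*. *col2a1a*, the main collagen of cartilage and notochord sheath, had 308, 529 and 772 CPM in S libraries and 815, 979.6 and 1111 CPM in plain libraries without overlap (log2 fold change -0.83 ± 0.12, adjusted p = 1.24e-05). *col11a1a*, which sets the width of the type II fibril, had 162, 247 and 312 CPM in S libraries and 330.3, 400.4 and 432 CPM in plain libraries, also without overlap (log2 fold change -0.70 ± 0.10, adjusted p = 2.39e-05). *col9a1b*, a chain of the collagen on the fibril surface, had 10.4, 26.4 and 55.6 CPM in S libraries and 52.5, 75.3 and 122 CPM in plain libraries, and only library S3 entered the plain range (log2 fold change -1.47 ± 0.23, adjusted p = 5.46e-05). The cartilage matrix gene *matn1* had 247 to 414 CPM in S libraries and 240 to 331 CPM in plain libraries. Leaving out any 1 library gave 10 to 14 lower genes in this list.

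Of the genes at the centre of the study, both zinc finger homeobox genes fell. *zfhx4* had 14.0, 40.9 and 52.5 CPM in S libraries and 61.7, 74.0 and 102 CPM in plain libraries without overlap (log2 fold change -0.99 ± 0.17, adjusted p = 0.000345). *zfhx3* had 31.6, 50.5 and 76.3 CPM in S libraries and 60.3, 72.8 and 87.9 CPM in plain libraries, with overlap (log2 fold change -0.54 ± 0.15, adjusted p = 0.0362), and it lost its call in 9 of 26 other settings. The skeletogenic factor *sox9b* had 49.9, 61.0 and 71.7 CPM in S libraries and 55.6, 67.7 and 70.9 CPM in plain libraries, with a log2 fold change of -0.11 ± 0.12 (adjusted p = 0.82). *jun*, a subunit of AP-1, and *six1b*, a homeobox factor, had log2 fold changes of -0.10 ± 0.12 (adjusted p = 0.822) and 0.25 ± 0.17 (adjusted p = 0.62), and *sox9a* stayed under 2 CPM in all 16 libraries. The 86 genes that the study listed for their likeness to *sox9b* held 18 that fell and none that rose (list median -0.28). Over all genes tested, 1.33% fell and 1.06% rose.

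Some lens genes and the rod opsin fell. Of 48 tested lens genes, 7 fell and none rose (list median -0.21), and 5 did not overlap. With library totals alone 24 lens genes fell and with DESeq2 15, whereas leaving out 1 library gave 5 to 9. *crybb1*, a beta crystallin, had 651, 1040.0 and 1529 CPM in S libraries and 1725, 1959 and 2090.1 CPM in plain libraries (log2 fold change -0.82 ± 0.11, adjusted p = 8.81e-06). *cryba1b*, another beta crystallin, had 586, 886 and 1110.2 CPM in S libraries and 1295, 1368 and 1503 CPM in plain libraries (log2 fold change -0.63 ± 0.09, adjusted p = 8.81e-06). *mipb*, the water channel of lens fibers, had 64.5, 80.4 and 93.3 CPM in S libraries and 109, 131 and 145 CPM in plain libraries (log2 fold change -0.70 ± 0.11, adjusted p = 4.23e-05). In each of the 3 lens genes the S libraries lay entirely below the plain ones. Some crystallins are near-identical copies, and their single values are uncertain. The rod opsin *rho* had 595, 1208 and 1674 CPM in S libraries and 1894, 2113 and 2526 CPM in plain libraries without overlap (log2 fold change -0.88 ± 0.14, adjusted p = 6.49e-05). Of 49 opsin and phototransduction genes, only *rho* and *gnb1a*, a subunit of the rod transducin, fell, *pde6gb*, an inhibitory subunit of the rod phosphodiesterase, rose (0.57 ± 0.13, adjusted p = 0.0101), and the list median was -0.02.

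Immediate early genes, which respond within minutes to stimuli such as neuronal activity, were lower in part. Of 35 tested, 4 fell and none rose (list median -0.18). *egr1* had 7.01, 17.7 and 30.6 CPM in S libraries and 25.0, 36.8 and 49.7 CPM in plain libraries, with overlap (log2 fold change -1.14 ± 0.22, adjusted p = 0.00109). *npas4a*, induced in active neurons, had 0, 2.39 and 7.97 CPM in S libraries and 6.75, 11.4 and 13.6 CPM in plain libraries (log2 fold change -1.81 ± 0.43, adjusted p = 0.0102), on at most 34 reads a library. The others were *ier2b*, at -0.79 ± 0.20 (adjusted p = 0.0198), and *ier2a*.

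Lists of other processes held almost no called genes. Single genes passed for heat shock proteins (*hspa8*, higher), globins and heme synthesis (*hbae1.3*, higher) and xenobiotic response (*cyp2aa8*, higher). In the joint list of amino acid stress and unfolded protein response genes only *ccng1* passed, higher, and in the exocrine pancreas list only *ela2l*, lower. The exocrine list still had a median of -0.44, with 3 of 27 genes positive. Over the other settings that median ran from -0.68 to -0.30. The pigment cell list held *pnp5a*, higher, and *mycbp2*, lower. No gene passed among the lists of enterocyte, glucocorticoid-responsive, circadian, hypoxia, cholesterol synthesis, inflammation, macrophage and neutrophil, interferon, antigen presentation, cell cycle, pituitary, endocrine pancreas or ionocyte genes, where list medians ran from -0.20 for enterocyte genes to 0.16 for ionocyte genes. The calls of *pnp5a*, *hbae1.3*, *ela2l* and *hspa8* were lost in 14, 13, 10 and 10 of 26 other settings.

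**Figure D3:**
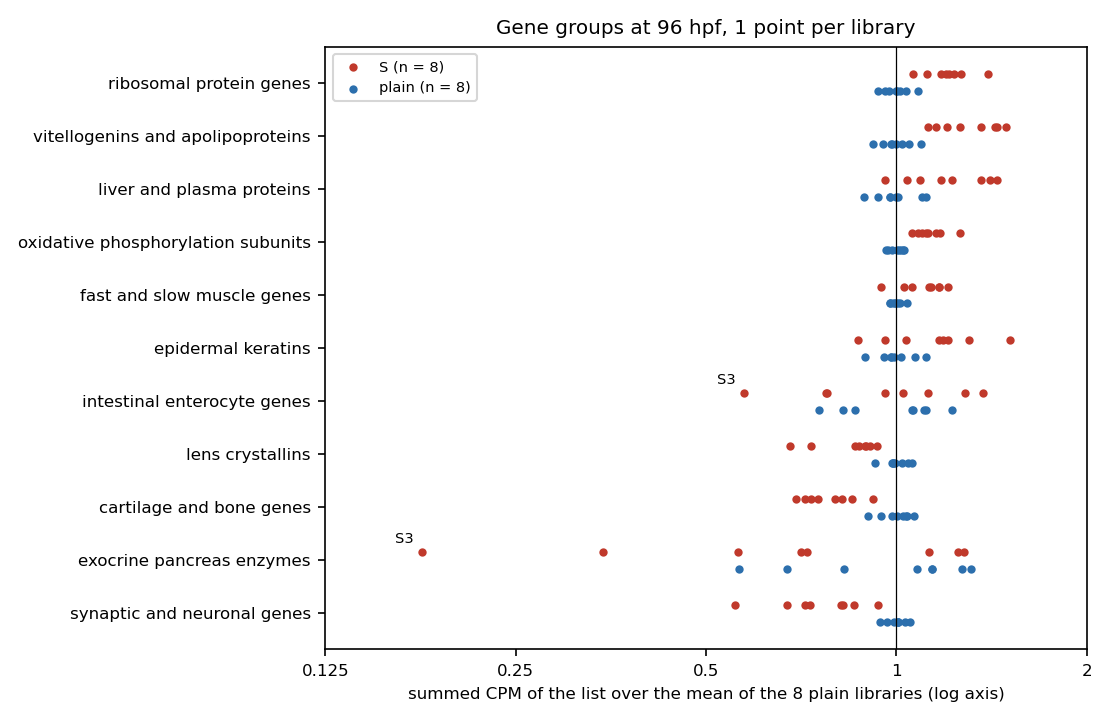
Summed CPM of 11 gene lists in each library, as a ratio to the mean of the 8 plain libraries (log axis), with S libraries above plain libraries in each pair of rows. Every S library lies above every plain library for apolipoproteins and oxidative phosphorylation, and every S library lies below every plain library for synaptic and neuronal genes, while the exocrine pancreas list shows the widest scatter among S libraries, with S3 lowest.

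Summed over each list, the apolipoproteins had 19345 to 25703 CPM in S libraries and 15872 to 18855 CPM in plain libraries, and the neuronal genes had 3500 to 5903 CPM in S libraries and 5938 to 6627 CPM in plain libraries, neither with overlap. Library S2 had both the lowest neuronal sum and the highest ribosomal protein share of the 16 libraries, 21.9%. What part the ribosomal protein share, the depth or the number of larvae has in these differences was not tested.

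The second question was which genes varied more between libraries in one group than in the other. The standard deviation (SD) of log2(CPM + 1) was taken over the 8 libraries of each group for the 8078 genes of at least 10 CPM, and absolute deviations from the group mean were compared with a moderated Levene test in limma. No gene passed an adjusted p of 0.05, and the smallest adjusted p was 0.0512. At an unadjusted p under 0.05, 575 genes (7.12%) varied more in S and 169 (2.09%) varied more in plain libraries. In 64.3% of genes the SD was larger in S, with a median log2 ratio of SDs of 0.26. Library S4 carried much of this, since without it the share was 56.8% and the median log2 ratio 0.12, and without S3 and S4 together, a choice made after seeing the data, they were 52.5% and 0.05.

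The larger spread of S libraries held most widely among abundant genes. Of the 3395 genes of 10 to 20 CPM, 60.24% had the larger SD in S, against 92.5% of the 294 genes above 500 CPM, where the median SD was 0.143 in S and 0.0931 in plain libraries. Counting error in these abundant genes was 0.0267 in S and 0.0261 in plain libraries. Without S3 and S4 the shares were 47.5% of genes at 10 to 20 CPM and 91.5% above 500 CPM. Thinning each library to 866854 counts left 63.2% of genes with the larger SD in S.

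**Figure D4:**
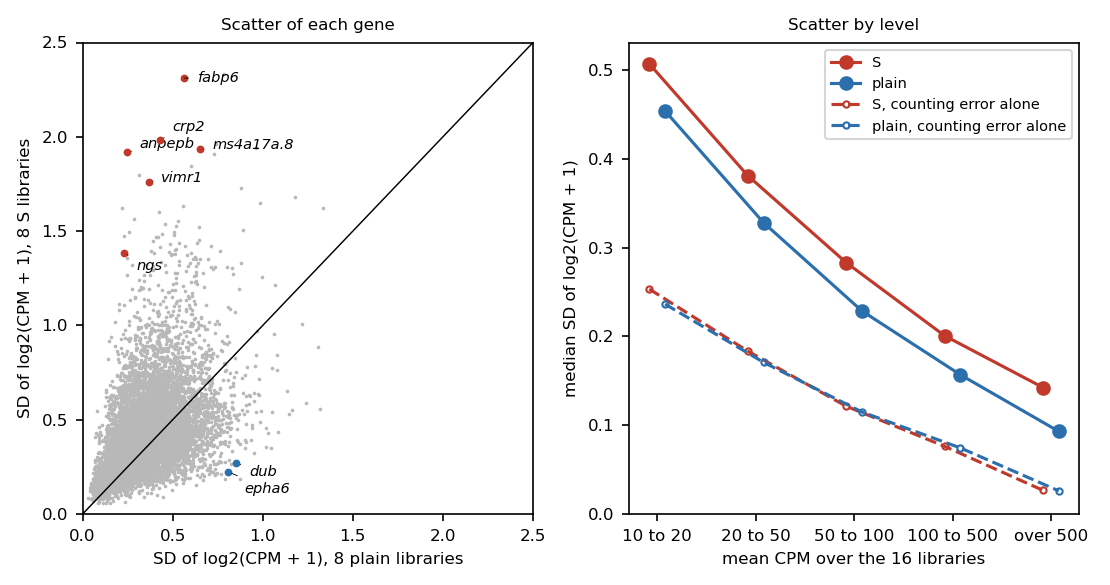
Left, the SD of log2(CPM + 1) of each gene in S libraries against that in plain libraries. Right, median SD by mean level in S and in plain libraries, with the scatter that counting error alone would give as dashed lines. The S median lies above the plain median at each level, at 0.143 against 0.0931 above 500 CPM.

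The typical distance of a library from the rest of its group, the median over genes of the absolute log2 deviation from the other 7 libraries, was 0.236 to 0.391 in S libraries (median 0.272) and 0.21 to 0.268 in plain libraries (median 0.248). The S libraries lay farther out by 0.0408 on average (two-sided exact permutation test, p = 0.0216). This difference did not hold without S4 (0.0226, p = 0.0738, exact), nor without plain library 1, 3 or 4 (0.0319, 0.0328 and 0.0368, exact p = 0.101, 0.0973 and 0.0682). Over genes of at least 50 CPM it was 0.0431 (exact permutation test, p = 0.00249). Each distance uses the other libraries of its group, so the distances depend on each other and all of these p-values are approximate.

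Genes whose SD in S most exceeded that in plain libraries, among those with the smallest p, included a notochord gene and regulators of signalling. *ngs*, notochord granular surface, had 1.94, 19.7 and 42.8 CPM in S libraries and 36.7, 47.5 and 57.2 CPM in plain libraries, with SDs of 1.38 and 0.228 (unadjusted p = 0.000163, adjusted p = 0.164). Libraries S1, S4 and S5 were low, at 1.94, 7.03 and 4.70 CPM, and only S2 reached the plain range, and *ngs* was also lower in mean (log2 fold change -1.23 ± 0.28, adjusted p = 0.00834). *vimr1*, related to vimentin and named here after its values were seen, was low in S1 and S5 too, at 0.387 and 3.42 CPM, against 14.2 to 48.0 CPM in the other S libraries and 19.3 to 41.1 CPM in plain libraries. *fzd7b*, a Wnt receptor, kept its mean but spread on both sides, with 15.9, 29.7 and 43.5 CPM in S libraries and 25.9, 29.9 and 36.4 CPM in plain libraries. Its S libraries fell into 4 values of 15.9 to 22.2 CPM and 4 of 37.2 to 43.5 CPM, below and above the whole plain range. The SDs were 0.584 in S and 0.175 in plain libraries (moderated Levene test in limma, adjusted p = 0.0512). *med23*, a subunit of the Mediator complex, had 4.14, 8.09 and 18.6 CPM in S libraries and 8.42, 12.2 and 13.8 CPM in plain libraries, with SDs of 0.780 and 0.255. *stmn2b*, lower in mean, had SDs of 0.682 in S and 0.152 in plain libraries. Others named by the same rule were *dla*, a Delta ligand of Notch, *nexmifa*, *tm4sf4*, *atg9b*, *gsna* and *pak2b*, with SDs of 0.413 to 0.865 in S and 0.171 to 0.284 in plain libraries. The SDs of these genes in S moved little without S3 or without S4, the largest shift being that of *tm4sf4*, whose SD was 0.849 with S3 and 0.666 without it.

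*ms4a17a.8*, a membrane protein gene of a family of near-identical copies, had the largest SD in S among the genes named by the rule on spread. Its S libraries held 32.1, 35.14 and 49.5 CPM in S2, S4 and S5 and 1.16 to 3.98 CPM in the other 5, while plain libraries held 11.6, 20.2 and 45.4 CPM at the lowest, median and highest. The SDs were 1.93 in S and 0.649 in plain libraries (moderated Levene test in limma, adjusted p = 0.1249). The neighbouring copy *ms4a17a.9*, chosen after its values were seen, had 0.854 CPM in S5, where *ms4a17a.8* was highest, and 25.8 to 65.9 CPM in the other S libraries, against 2.25 to 41.9 CPM in plain libraries. Reads shared between these copies were divided by the counting program, and the split between them is uncertain. *gpr85*, a receptor of the brain also chosen after its values were seen, had no count in S4 and 6.64 to 33.3 CPM in the other S libraries, against 27.0 to 41.9 CPM in plain libraries, and its SD in S was 1.63 with S4 and 0.689 without it.

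In the other direction, no gene passed an adjusted p of 0.05, and 169 of 8078 genes (2.09%) varied more in plain libraries at an unadjusted p under 0.05. The genes named here were picked from those with the smallest p. *dub*, duboraya, which acts in the ciliated Kupffer's vesicle, had 8.20, 12.1 and 15.9 CPM in S libraries and 3.74, 9.88 and 17.3 CPM in plain libraries. Its plain libraries fell into 4 values of 3.74 to 6.25 CPM and 4 of 13.5 to 17.3 CPM, whereas the S libraries lay closer together. The SDs were 0.27 in S and 0.854 in plain libraries (moderated Levene test in limma, adjusted p = 0.0512). *epha6*, an ephrin receptor, had 7.63, 8.53 and 12.4 CPM in S libraries and 3.96, 8.99 and 20.2 CPM in plain libraries (SD 0.225 and 0.807). *nudt5*, an ADP-sugar hydrolase, had 14.1, 16.7 and 19.8 CPM in S libraries and 9.00, 17.8 and 26.5 CPM in plain libraries (SD 0.156 and 0.632). Over 24 other settings its log2 ratio of SDs, S over plain, ran from -2.29 to 0.19, so the larger SD was not always in plain libraries. Others were *chchd3b*, *arhgef16*, *rpe65a*, the retinoid isomerase, and *rbm24a*, an RNA-binding protein of muscle and heart, with SDs of 0.10 to 0.353 in S and 0.415 to 0.900 in plain libraries. The group medians of these genes lay between 4.33 and 27.2 CPM.

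By list, spread was larger in S in 49 of 54 synaptic and neuronal genes, with a median SD of 0.460 in S and 0.208 in plain libraries and 19 genes at an unadjusted p under 0.05, 17 without S3 and S4. Over all 8078 genes, 64.3% had the larger SD in S, and 7.12% varied more in S at that unadjusted p. Library S2 was the lowest of the 16 in 25 of the 54 neuronal genes, and their spread without S2 is not given. That list was written after neuronal genes low in S had been seen, so its spread counts are a description too. Lens genes had the larger SD in S in 33 of 36, with medians of 0.222 and 0.0971, and 31 of 36 without S3 and S4. The lens share of 91.7% was near the 92.5% among all 294 genes above 500 CPM, and the part of abundance in it was not tested. Ribosomal protein genes had it in 74 of 80, with medians of 0.135 in S and 0.0885 in plain libraries, which is 92.5%, the same share as among all genes above 500 CPM. Those abundant genes include ribosomal protein genes such as *rpl39* and lens genes such as *crybb1*, so these shares are not independent. *rho* had SDs of 0.619 in S and 0.145 in plain libraries (unadjusted p = 0.000801, adjusted p = 0.243), with S2, S3 and S5 at 604, 595 and 831 CPM and the other S libraries at 1142 to 1674 CPM.

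Exocrine pancreas and enterocyte genes had the largest median SDs in S of the lists described, at 1.12 and 0.785, and library S3 was the lowest in both. The exocrine list had a median SD of 1.12 in S and 0.491 in plain libraries, and 0.809 against 0.477 without S3, and the enterocyte list 0.785 in S and 0.347 in plain libraries, and 0.476 against 0.347 without S3. The summed level of the exocrine list was 1402 CPM in S3, the lowest of the 16, and up to 10065 CPM in the other S libraries. Plain libraries had 4443 to 10327 CPM, and S7 and S2, at 2707 and 4432 CPM, also lay below all of them. The coefficient of variation of that sum was 53.6% in S and 27.8% in plain libraries. *ela2l*, a pancreatic elastase, had 16.4, 117 and 286 CPM in S libraries and 112, 245 and 377 CPM in plain libraries and was the 1 member of 27 called in mean (log2 fold change -0.94 ± 0.26, adjusted p = 0.0383). *ctrb1*, a chymotrypsinogen, had 141, 572 and 1311 CPM in S libraries and 519, 991 and 1257 CPM in plain libraries, and was not called (adjusted p = 0.499). Elastase genes are near-identical copies and their single values are uncertain.

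In library S3, 46 of the 4683 genes of at least 20 CPM lay at least 4-fold below the other S libraries, 36 of them with a gene name, and these were chosen on the S3 values. S3 was the lowest of all 16 libraries in 35 of the 36, the exception being *lygl1*. The 36 genes included 16 exocrine pancreas enzymes, 3 liver genes and 3 enterocyte genes, beside genes outside these lists. *fabp6*, the ileal bile acid-binding protein, had 1.09 CPM in S3, on 2 reads, against 60.198 to 274 CPM in the other S libraries and 59.3 to 190.3 CPM in plain libraries. *ttr*, transthyretin, had 0.545 CPM in S3, on 1 read, against 12.8 to 36.7 CPM in the other S libraries and 15.4 to 41.6 CPM in plain libraries. *c3a.2*, a complement C3, had no read in S3. Without S3 the SDs in S of *fabp6*, *ttr* and *c3a.2* were 0.721, 0.666 and 0.755, against 2.31, 1.5 and 1.91 with it and 0.565, 0.506 and 0.732 in plain libraries. *anpepb*, an aminopeptidase N, and *crp2*, a C-reactive protein, still had SDs of 1.17 and 1.08 without S3, against 0.248 and 0.428 in plain libraries.

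**Figure D5:**
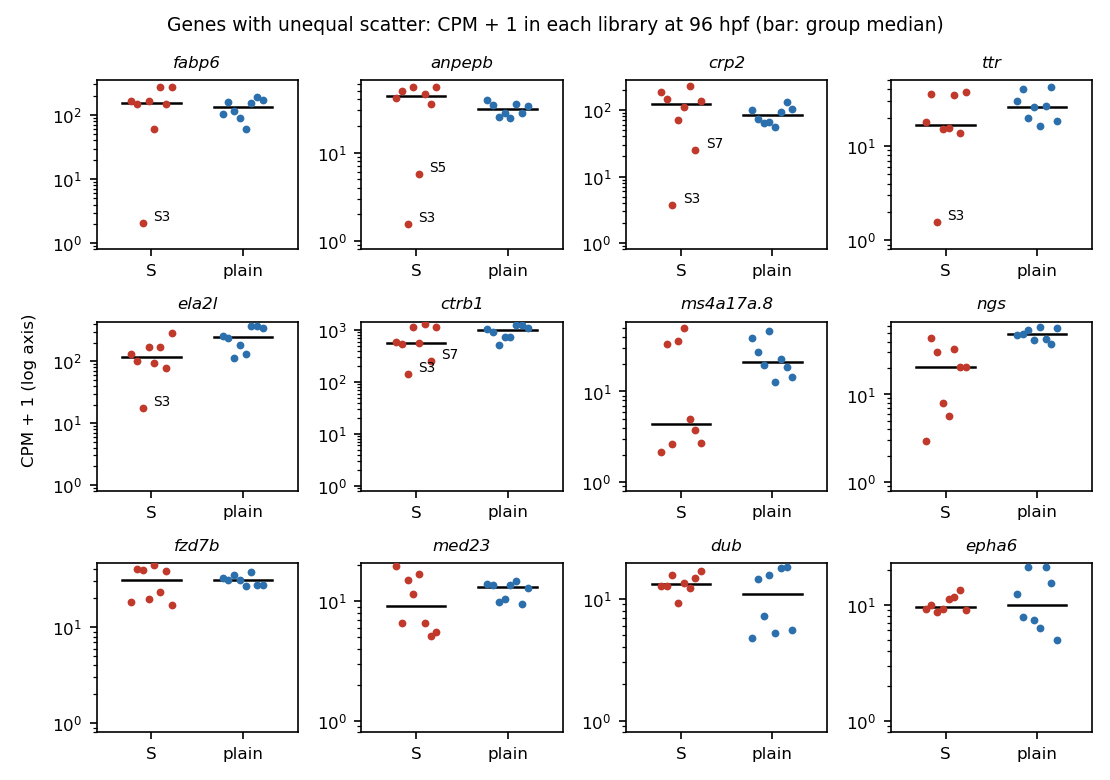
CPM + 1 (log axis) of 12 genes chosen for their spread, in each of the 8 S libraries (left in each panel) and the 8 plain libraries (right). *fabp6*, *anpepb*, *crp2*, *ttr*, *ela2l* and *ctrb1* have their lowest value in library S3, while *dub* and *epha6* are tighter in S than in plain libraries.

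The summed level of the 36 genes was 1054 CPM in S3, 2761 to 9640 CPM in the other S libraries and 4130 to 9500 CPM in plain libraries of 96 hpf. In plain libraries of earlier stages the same sum was 76.8 to 118 CPM at 48 hpf and 423 to 634 CPM at 72 hpf. The genes were chosen for low values in S3, so its low sum among the 96 hpf libraries follows from that choice. Whether the stage of the fish had a part in it was not tested. Of the 36 genes, 27 were higher and 1 was lower at 72 than at 48 hpf, against 13.3% and 11.4% of all 17856 genes tested between these stages. The 36 genes had to reach 20 CPM at 96 hpf, a filter that the 17856 genes did not pass through. What part that filter has in these counts was not tested. Outside these genes, *col9a1b*, *apoc1*, *rbp4*, *icn* and *hbae1.3* were among those with their highest S values in S3. Among genes of at least 10 CPM, S3 was the highest of the 16 libraries for 720 and the lowest for 739.

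The S and plain libraries of 6 somites, the other stage with 8 of each, gave a contrast of the same letter in other fish. Their used numbers were 25 and 50, against 1 and 5 at 96 hpf, so the contrasts differ in that number. The difference between S and plain itself differed between the stages for 109 of 18497 genes in the positive direction (0.589%) and 227 in the negative direction (1.23%), by the interaction term of the edgeR model. The genes lower in S at 96 hpf had a median log2 fold change of 0.10 at 6 somites, where 4 of the 221 were higher and 2 lower in S, against 0.908% and 0.47% of all genes tested at that stage. The genes higher in S at 96 hpf had a median of 0.12 at 6 somites, with 18 of the 176 higher and 3 lower. Over all genes tested at 96 hpf, the median at 6 somites was 0.047. *col2a1a* was higher in S at 6 somites by 0.50 (adjusted p = 0.0379) and lower at 96 hpf, a difference of -1.34 ± 0.18 (adjusted p = 2e-06). *rbp4* and *apoa1b* were higher in S at both stages, with 0.61 (adjusted p = 0.00108) and 0.35 (adjusted p = 5.28e-05) at 6 somites, and their differences between stages did not pass (adjusted p = 0.827 and 0.859). The larger spread in S was not seen at 6 somites, where 42.9% of 7322 genes had the larger SD in S and the median log2 ratio was -0.11.

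The genes that differed at 96 hpf were also followed between 48 and 72 hpf in plain libraries. Of the 176 genes higher in S, 36 were higher and 101 lower at 72 hpf, and of the 221 genes lower in S, 52 were higher and 89 lower. Among all genes tested at 96 hpf, 2354 were higher and 1995 lower at 72 hpf, 14.4% and 12.2%. Both sets thus held more genes lower at 72 hpf than higher, whichever way they differed between S and plain libraries. They were also more abundant than the median gene, and the part of abundance in these counts was not tested.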

How the data were processed

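Total RNA of 96 hpf zebrafish was read by 3′ Lasy-Seq. The authors trimmed reads with fastp 0.21.0, aligned them with BWA 0.7.17-r1188 and counted them with Salmon, and deposited estimated counts per gene without normalization. All but 2 values were whole, and those 2 were rounded. The tests used edgeR 4.0.16 with limma 3.58.1 under R 4.3.3, DESeq2 1.42.0 served as an alternative, and plots were drawn by matplotlib 3.10.9 under Python 3.11.15.

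For the mean, a gene needed a count of 1 or more in 8 or more of the 16 libraries and entered edgeR's quasi-likelihood test with TMM factors, and p-values were adjusted by Benjamini-Hochberg across every tested gene. CPM use TMM-scaled totals. Spread was tested on log2(CPM + 1) over genes of at least 10 CPM. The scripts were tested on simulated data, where the spread test recovered few of the genes given extra scatter. Counting errors given cover read sampling only, because PCR copies were not marked by molecular identifiers. Standard errors were derived from the F statistic.

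Named by rule were the 12 called genes of at least 10 CPM without overlap with the most positive and the 12 with the most negative fold change, 12 and 8 genes with the most unequal SD among those with small p, up to 3 called members of each list, and the genes of the study. Members and lists were chosen with earlier results of these data known. Clone-like symbols were counted, not named, and some genes that the rule names are not reported here.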

Additional observations from a re-analysis of the deposited data

Results flagged for a closer look

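Among the genes named and some measures of whole libraries, 250 groups of 8 libraries were checked for a single library far from the other 7. The check used the gap to the nearest library over the range of the group. Chance gives about 1 in 20 such groups, and 26 were found, 18 in S and 8 in plain libraries. Of these, 12 were library S3 and 3 were S4, including the distance of S4 from its group, which is not a gene. However, 60 of the 120 genes had been chosen for a low or high library or for their spread, many of them for a low S3, so the number found cannot be read against chance. Over the 60 genes not chosen in that way, 9 of 120 groups had such a library, 3 in S and 6 in plain libraries, and none was S3.

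On the scale of log2(CPM + 1), library S3 was lowest for *aqp8a.2* (2.81), *c3a.2* (0), *cel.1* (3.57), *cxl34b.11* (3.97), *ela2l* (4.12), *fabp6* (1.06), *fkbp5* (4.02), *gadd45ba* (3.36), *scpp9* (1.06), *serpinf2a* (2.42), *srd5a2a* (2.81) and *ttr* (0.63). The nearest other S library had 4.59 for *aqp8a.2*, 4.08 for *c3a.2* and 5.94 for *fabp6*. *fkbp5* is induced by glucocorticoids, *srd5a2a* is a steroid reductase and *gadd45ba* a stress-response gene. No common theme among the genes low in S3 was tested, and no glucocorticoid-responsive gene was called in mean.

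Library S4 was lowest for *clstn3* (3.01) and *gpr85* (0), and its distance from the S group, 0.391, lay above the 0.236 to 0.307 of the other S libraries. Library S2 was lowest for *atn1* (1.08) and *stxbp1a* (4.90), and S5 for *ms4a17a.9* (0.89). Among plain libraries, library 3 was lowest for *cpa4* (5.33), *pvalb2* (13.86) and *tfa* (9.53) and highest for *usp32* (4.70), library 5 was highest for *atg9b* (4.6) and *zfhx4* (6.68), library 6 was lowest for *rbp4* (8.92), and library 8 was highest for *jun* (6.93).

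The log2 difference between S and plain libraries at 96 hpf minus that at 6 somites passed the interaction test of edgeR for 26 named genes. It was positive for *abracl* (0.58), *apoc1* (0.68), *ccng1* (0.57), *cyp2aa8* (0.65), *hspa8* (0.38), *mt-co2* (0.43), *mt-co3* (0.55), *rpl23a* (0.30), *rpl29* (0.37), *rpl39* (0.36), *rps26l* (0.32), *spaca4l* (0.69) and *tmsb1* (0.71). It was negative for *atn1* (-1.79), *col11a1a* (-1.16), *col2a1a* (-1.34), *crybb1* (-1.29), *dmxl2* (-1.27), *gnb1a* (-0.68), *irf2bpl* (-1.36), *sox9b* (-0.57), *stxbp1a* (-2.33), *syn1* (-3.19), *ubap2a* (-1.01), *zfhx3* (-1.40) and *zfhx4* (-1.45). These genes, except *sox9b*, were called at 96 hpf, and the same values enter the difference. *sox9b* was higher in S at 6 somites by 0.46 (edgeR, adjusted p = 0.0143) and was not called at 96 hpf.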

How the results depend on the processing

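With DESeq2, 664 genes differed in mean (308 higher, 356 lower in S), and with 1 spread for all 81 numbered libraries 914 (431 higher, 483 lower). Library totals alone gave 444 (73 higher, 371 lower). Leaving out 1 library gave 275 to 504 called genes, 125 to 236 higher and 146 to 300 lower, the fewest lower without S2. In spread, 0 genes were called, 3 with a pseudocount of 0.1, 1 with RLE factors, 1 without S3 and S4 together, and 0 to 6 without 1 library. Unadjusted counts (larger in S, larger in plain) were 312 and 88 about group medians, 196 and 24 at a mean of at least 50 CPM and 981 and 427 with no minimum. They were 464 and 276 without S3 and S4, a choice made after seeing the data, as was limma voom with 1 spread, which called 497 genes in mean. Leaving out 1 library gave 485 to 685 and 154 to 239. The median log2 ratio of SDs was 0.43 at 50 CPM, 0.12 to 0.30 without 1 library and 0.047 without S3 and S4, and the share of genes with the larger SD in S was 56.8% to 66.4% without 1 library. The distance from the group differed by 0.0226 to 0.0540 without 1 library, and by 0.0195 without S3 and S4 (exact permutation test, p = 0.0909, approximate as above). For the difference between stages, DESeq2 called 729 genes (379 above 0, 350 below) and a filter on expression gave 173 above 0. The cause of these shifts was not tested. Over 61 named genes called in mean and these settings, 1474 values kept the call, 109 lost it and none changed sign. Depth limits what the spread of low genes can show.

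S and plain libraries shared the numbers 1 to 8, but same-numbered libraries did not deviate together (correlations of -0.0362 to 0.0927, the best match being the own number for 3 of 8). With the replicate block 435 genes differed in mean (172 higher, 263 lower), 364 of them called without it, and 1 gene, *ms4a17a.8*, differed in spread.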
